A study of Mus musculus with 18 samples.

Results

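RNA of row >3 Lgr5+ cells of the large intestine (LI) was compared with RNA of centre Lgr5+ cells of the same organ. All libraries labelled as LI with low GFP (row >3, 3 replicates) or high GFP (centre, 3 replicates) were taken, which gave 6 of the 18 libraries of the study. The mice were untreated C57BL/6 animals of 8 to 20 weeks. They carried the Lgr5_eGFP_Iris_creERT2 allele, named Lgr5eGFP-Ires-CreERT2 in the study, which places GFP and a tamoxifen-dependent Cre under the *Lgr5* locus in every group. The study's methods give a wider age range for RNA-seq and other experiments, and a mixed or C57/B6 background. EPCAM-positive crypt cells were gated on GFP, so high, medium and low GFP stand for centre, border and row >3 cells by brightness and not by a measured position. The reporter is known to be silent in part of the crypts, and a sorted pool can hold cells with carried-over GFP. The 3 border libraries of the LI and the centre and row >3 libraries of the small intestine (SI) served as references.

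In a colonic crypt, stem cells with *Lgr5*, a receptor for R-spondins, sit at the base beside deep crypt secretory cells and are held there by Wnt and Notch signals. Their daughters move up the crypt wall, divide a few more times and become absorptive colonocytes, which take up salt, water and butyrate, or goblet cells, which secrete the mucus layer. The comparison of low with high GFP therefore asks what RNA changes at the start of that path.

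Totals of the 6 libraries lay between 15689209 and 26509262 counted reads on genes. *Epcam* had 16599.8 to 24706 normalised counts in them, while the posterior genes *Hoxb13* and *Hoxd13* were at or near 0. The study's LI takes in caecum and colon, and its methods do not name the segment sorted for RNA. All libraries of replicate 2 expressed Y-linked genes and those of replicates 1 and 3 expressed *Xist*, which sets replicate 2 apart by sex and does not tell replicate 1 from 3. Replicate 1 also stood apart by skeletal muscle transcripts. Summed over 8 muscle genes (*Myh4*, *Ttn*, *Tnnc2*, *Tnnt3*, *Atp2a1*, *Neb*, *Ckm* and *Myh1*, a list made after the values were seen), its centre, border and row >3 libraries had 2672, 1657 and 102 normalised counts, against 3.77 to 26.2 in the other LI libraries. Of these 8 genes 6 were called lower in row >3 cells. Without the replicate 1 libraries edgeR called 0 of them, and 1 had an unadjusted p under 0.05. Their part in other results was not tested, and the main counts are given below with and without replicate 1.

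Of 24761 genes tested, 2174 (8.78%) differed between row >3 and centre cells of the LI by edgeR's quasi-likelihood test with the replicate number as a block and a Benjamini-Hochberg adjusted p under 0.05. Among them 1261 (5.09%) were higher in row >3 cells and 913 (3.69%) lower. Most differences were small. The median log2 fold change was 0.54 for genes that were higher and -0.64 for genes that were lower, and 182 and 228 genes differed by more than 2-fold. In 1651 of the 2174 genes the libraries of the groups did not overlap, as in 27.2% of genes with an LI mean of at least 50 normalised counts. Among these 11163 genes, 18.5% were called, 11% higher and 7.51% lower. List counts below take in all tested members. Where nearly all members have such a mean, they are to be read beside this 18.5%. In lists of mostly low genes, which are marked as such, the 8.78% of all genes applies. Other lists lie between, and neither share fits them exactly. Such a mean was found in 16 of 21 Wnt targets, 12 of 15 Frizzled and related receptors and 9 of 14 Eph genes. The numbers were 14 of 18 for Notch, 16 of 21 for BMP, 10 of 14 for ErbB and 18 of 23 for transport genes. Tuft cell markers had 20 of 25, intestinal factors 22 of 29 and host defence genes 19 of 28. With the stricter pair of limits that the study's volcano plots use, p under 0.001 before adjustment and over 4-fold (2 on the log2 scale), 21 genes (0.0848%) were higher and 48 (0.194%) lower. At these limits DESeq2 with the block gave 69 higher and 75 lower genes, and edgeR without row >3 replicate 1 gave 13 and 17.

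The count comes from a fit of the 9 LI libraries, border included, and depends on the libraries fitted, on the block and on single libraries. With the block the 6 libraries compared gave 545 genes, 341 higher and 204 lower, and all 18 libraries gave 692, 343 higher and 349 lower. In the 6 libraries with the block, calls of the lists below went from 16 to 15 for stem cell and 21 to 16 for absorptive markers. They went from 16 to 13 for cholesterol synthesis, 16 to 8 for goblet cell markers and 12 to 6 for Wnt targets. Butyrate genes went from 14 to 4, junction and ribosome biogenesis genes from 10 to 3 and intestinal factors from 11 to 1. List counts thus depend in part on fitting the border libraries. Without the block the same 9 LI libraries gave 366 genes, 202 higher and 164 lower, all of them among the 2174. In all 6 fits that left out 1 of the compared libraries 749 of the 2174 genes were called. Without the replicate 1 libraries the count was 3760, which included 2118 of the 2174 in the same direction. With totals as the sole scaling the split turned to 694 higher and 1329 lower genes, as the median log2 fold change over the 11163 genes with a mean of at least 50 moved from 0.02 to -0.09, so small differences close to this shift depend on the scaling.

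**Figure D1:**
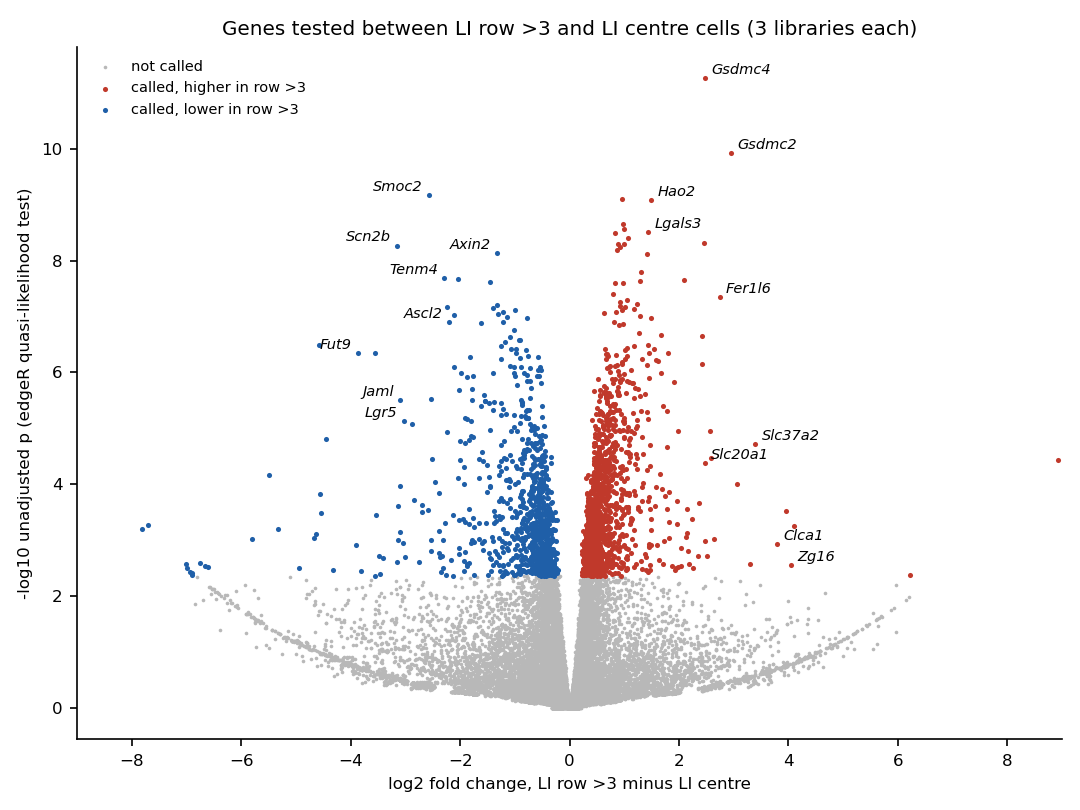
Log2 fold change of LI row >3 against LI centre cells (x axis) and -log10 of the unadjusted p of edgeR's quasi-likelihood test (y axis) for the 24761 genes tested. Red points are the 1261 genes called higher, blue points the 913 called lower and grey points genes not called, and *Gsdmc4* and *Gsdmc2* on the right and *Smoc2* and *Scn2b* on the left have the smallest p of each direction.

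*Lgr5* itself follows the sort and is given as a description. Its normalised counts were 2575, 2327 and 2176 in centre replicates 1, 2 and 3 and 134, 466 and 262 in row >3 replicates 1, 2 and 3, a log2 fold change of -3.03 ± 0.30 (SE), a fitted fold of 8.20. The row >3 cells thus kept a measurable *Lgr5* level, lowest in replicate 1. Border cells had 1676, 1492 and 1184.

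Genes that mark crypt base stem cells fell together. Of 20 listed markers, all tested, 16 were lower in row >3 cells, 0 were higher and 4 were not called, and the median log2 fold change was -1.28. *Lgr5* is 1 of the 16 and enters the median, but its fall was set by the sort and adds no support. *Smoc2*, a secreted matricellular protein that marks stem cells, lies at chr17:14279506-14404790 (mm10) and had 1872, 1721 and 1723 normalised counts in centre and 196, 393 and 297 in row >3 libraries. The groups were far apart in every replicate (log2 fold change -2.58 ± 0.16, adjusted p = 4.05e-06). *Ascl2*, the transcription factor that drives the stem cell programme (chr7:142966829-142969264), had 234, 282 and 359.9 in centre and 43.7, 82.0 and 60.4 in row >3 libraries (log2 fold change -2.21 ± 0.21, adjusted p = 6.07e-05). No row >3 library reached the lowest centre library. The RNA-binding proteins *Mex3a* (-1.76 ± 0.20) and *Msi1* (-1.47 ± 0.19), the IGF-binding protein *Igfbp4* (-2.02 ± 0.25), the water channel *Aqp4* (-1.41 ± 0.13), the BMP co-receptor *Rgmb* (-1.01 ± 0.12), the ErbB regulator *Lrig1* (-0.97 ± 0.10), the transcription factor *Sox4* (-1.22 ± 0.11) and the chloride cotransporter *Slc12a2* (-0.92 ± 0.09) fell as well, with log2 fold changes and SE in brackets. *Clca3b*, listed under the older symbol *Clca4*, was abundant and went from 32826 ± 2555 (SD, n = 3) in centre to 13089 ± 3088 in row >3 libraries (log2 fold change -1.34 ± 0.12, adjusted p = 4.73e-05). *Prom1* (log2 0.25 ± 0.08, adjusted p = 0.0815), *Bmi1* (-0.22 ± 0.13, 0.402), *Hopx* (-0.30 ± 0.11, 0.118) and *Tert* (-0.59 ± 0.27, 0.239) were not called. *Olfm4*, a stem cell marker of the SI, was at 0, 79.4 and 23.7 in centre and 0, 1.52 and 0 in row >3 libraries. It was called lower at these few counts, with groups that overlapped. Without the block 13 of the 20 were called, and without replicate 1 17 were lower and 1 higher. Pooled RNA cannot separate fewer cells of a type from less RNA per cell, here and in all lists that follow.

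Wnt targets and feedback genes fell in part. Of 21 members 12 were lower and 0 higher, with a median of -0.64. *Axin2*, the feedback inhibitor used as a readout of Wnt signalling (chr11:108920349-108950783), had 3649, 2894 and 2851 normalised counts in centre and 1241, 1311 and 1174 in row >3 libraries. Each row >3 library lay more than 2-fold below its own centre library (log2 fold change -1.32 ± 0.10, adjusted p = 1.05e-05). The ubiquitin ligases *Rnf43* (-0.90 ± 0.09) and *Znrf3* (-0.84 ± 0.18), which remove Frizzled receptors, the adhesion receptor *Cd44* (-1.25 ± 0.14), the transcription factors *Myc* (-0.64 ± 0.09), *Sox9* (-0.60 ± 0.07), *Tcf7* (-0.73 ± 0.15) and *Sp5* (-1.40 ± 0.33) and the secreted or membrane inhibitor *Apcdd1* (-1.92 ± 0.41) were also lower. *Ccnd1*, which encodes cyclin D1, changed less (log2 fold change -0.53 ± 0.10, adjusted p = 0.00517), and its reads cannot be separated from a gene on the opposite strand because the strand of counting is not given. Another 9 genes of the list were not called. *Lgr4*, the broadly expressed partner of *Lgr5*, had 2576, 2605 and 2537 in centre and 2137, 2403 and 2558 in row >3 libraries (log2 fold change -0.12 ± 0.08, adjusted p = 0.483), and *Tcf7l2*, the main TCF factor of the epithelium, had a log2 fold change of 0.05 ± 0.09 (adjusted p = 0.814). A p that misses the threshold does not show that a level was the same. Among 15 Frizzled, LRP and related receptors, 2 fell, *Fzd7* (log2 fold change -1.40 ± 0.18, adjusted p = 0.000579) and *Fzd2* (log2 fold change -1.66 ± 0.39, adjusted p = 0.0184), and 13 were not called, including the co-receptors *Lrp5* and *Lrp6* with log2 fold changes of -0.03 ± 0.08 and 0.08 ± 0.07. Without the block 7 Wnt targets and both Frizzled genes were called. *Fzd7* was called in each of the 6 fits with 1 library left out, and *Fzd2* lost its call without centre replicate 1, centre replicate 3 or row >3 replicate 3.

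The letters CTTTGAT, a core that TCF/LEF factors can bind, were looked for on both strands of the 250 bases before the RefSeq start of each gene (GRCm38.p6). They were found for 26 of 704 genes called lower (3.693%), for 25 of 989 called higher (2.528%) and for 220 of 8641 genes with a mean of at least 50 (2.546%), where only genes with a window are counted. Of 13 Wnt targets with a window 1 held them and of 15 stem cell markers 1. These 2 genes fell, and their windows are shown with the match in capitals, in the 5′ to 3′ direction of the gene (chr2:70474673-70474922, plus strand, for *Sp5*, and chr14:61037988-61038237, minus strand, for the receptor gene *Tnfrsf19*). *Atoh1* and *Mep1a*, which rose, also held the letters. A match is a description of the letters and not a binding site.
Sp5: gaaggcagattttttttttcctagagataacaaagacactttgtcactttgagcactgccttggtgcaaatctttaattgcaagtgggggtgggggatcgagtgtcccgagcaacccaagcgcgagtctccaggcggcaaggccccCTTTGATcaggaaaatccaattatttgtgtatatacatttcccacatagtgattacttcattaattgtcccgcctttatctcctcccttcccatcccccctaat
Tnfrsf19: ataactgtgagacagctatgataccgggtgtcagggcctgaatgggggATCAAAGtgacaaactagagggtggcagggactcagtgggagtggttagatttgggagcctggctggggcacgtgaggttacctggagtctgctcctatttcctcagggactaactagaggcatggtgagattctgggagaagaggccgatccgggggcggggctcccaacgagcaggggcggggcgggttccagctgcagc
*Sp5* had 95.3, 78.7 and 91.6 normalised counts in centre and 38.3, 22.8 and 41.5 in row >3 libraries (adjusted p = 0.0194), and *Tnfrsf19* had 89.4, 71.4 and 78.5 in centre against 57.4, 19.0 and 20.7 in row >3 (adjusted p = 0.0252). Both are low in the LI, and of the 6 fits with 1 library left out 2 called each of them.

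Eph receptors and their ephrin ligands push cells apart and set up the crypt axis. *Ephb3* (chr16:21204755-21223305) had 2573, 2010.3 and 2109 normalised counts in centre and 693, 896 and 815 in row >3 libraries (log2 fold change -1.46 ± 0.12, adjusted p = 2.36e-05), with no overlap. *Ephb2*, its close relative, had 4838, 4150.3 and 4189 in centre and 4656, 4207 and 3996 in row >3 libraries. Its groups overlapped and it was not called (log2 fold change -0.03 ± 0.07, adjusted p = 0.853). Both genes belong to the Wnt list. Of 15 further receptors and ligands 14 were tested, of which 2 were lower, *Epha4* (-0.64 ± 0.11) and *Epha7* (-1.93 ± 0.51), 2 higher and 10 not called. None of the fits with 1 library left out called *Epha7* (0 of 6). The higher ones were the ligands *Efnb2*, with 574, 505 and 555 in centre and 1522, 1036 and 1387 in row >3 libraries (log2 fold change 1.26 ± 0.12, adjusted p = 8.82e-05), and *Efnb1* (log2 fold change 0.59 ± 0.10, adjusted p = 0.00318). Without the block 1 of the 14 was called, and it was higher.

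Of 18 tested Notch genes 4 were lower and 2 higher. The lower ones were 3 receptors and a target, with *Notch1* at 3886, 2599 and 2843 in centre and 1419, 1365 and 1246 in row >3 libraries (log2 fold change -1.18 ± 0.12, adjusted p = 0.000115), *Notch2* (-0.74 ± 0.16), *Notch3* (-1.51 ± 0.28) and the target *Hes1* (log2 fold change -0.67 ± 0.12, adjusted p = 0.00325). Of 5 ligands 2 were higher, *Dll1* at 556, 589 and 594 in centre and 1185, 831 and 813 in row >3 libraries (log2 fold change 0.67 ± 0.13, adjusted p = 0.00617), and *Dll4* (log2 fold change 0.68 ± 0.13, adjusted p = 0.00528). *Atoh1*, the secretory lineage factor that Notch represses, had 996, 1080.2 and 1884 in centre and 2703, 1953 and 3066 in row >3 libraries (log2 fold change 1.0 ± 0.14, adjusted p = 0.000701). The other 12 Notch genes were not called, and without the block 2 were, both lower. In the BMP pathway 1 of 21 genes was called, *Smad5* (-0.36 ± 0.09), and the targets *Id1* and *Id3* had log2 fold changes of 0.35 ± 0.20 (adjusted p = 0.372) and 0.94 ± 0.28 (adjusted p = 0.0531). Of 14 ErbB receptors, ligands and regulators tested, *Egfr* (-0.42 ± 0.11) fell and *Egf* (0.95 ± 0.18) and *Lrig3* (0.43 ± 0.08) rose. Without the block edgeR called 0 BMP and 0 ErbB genes, while 4 and 3 had an unadjusted p under 0.05, and DESeq2 without the block in the 6 libraries compared called 0 of either. Without centre replicate 2 there was 1 ErbB call. *Smad5* was called in 1 of the 6 fits with 1 library left out, without row >3 replicate 1, and without row >3 replicate 2 the single BMP call was a higher gene. Without all replicate 1 libraries BMP genes had 3 higher and 1 lower calls and ErbB genes 4 higher and 1 lower.

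Several genes outside the lists changed as much as the stem cell markers. *Cps1*, the mitochondrial carbamoyl phosphate synthetase (chr1:67123026-67231259), had 7074, 9183 and 8555 normalised counts in centre and 1136, 3173 and 2039 in row >3 libraries (log2 fold change -2.04 ± 0.16, adjusted p = 2.36e-05). *Scn2b*, a sodium channel beta subunit, went from 957, 945 and 1025 to 42.8, 159 and 124 (log2 fold change -3.15 ± 0.23, adjusted p = 9.33e-06). *Fut9*, a fucosyltransferase, went from 115, 103 and 186 to 0, 9.11 and 17.9 (log2 fold change -3.87 ± 0.42, adjusted p = 0.000143). In all 3 genes the groups were apart in every replicate, and *Fut9* was at 0 in one row >3 library. The metalloprotease *Adamts16* (-3.55 ± 0.38), the adhesion genes *Jaml* (-3.11 ± 0.39, listed as *Amica1*) and *Tenm4* (-2.29 ± 0.19), the kinase *Dmpk* (-2.54 ± 0.32), the peroxidasin *Pxdn* (-2.24 ± 0.32), the RNA-binding protein *Rbms3* (-2.40 ± 0.45), *Tmem132c* (-2.24 ± 0.20) and *Angpt2* (-2.11 ± 0.20), an angiopoietin whose gene lies within *Mcph1* on the other strand, fell by more than 4-fold. *Mcc* (-1.14 ± 0.11), *Sesn3* (-1.31 ± 0.12) and the YAP target *Ccn1* (-0.99 ± 0.09, listed as *Cyr61*) fell less but had adjusted p values of at most 5.49e-05.

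**Figure D2:**
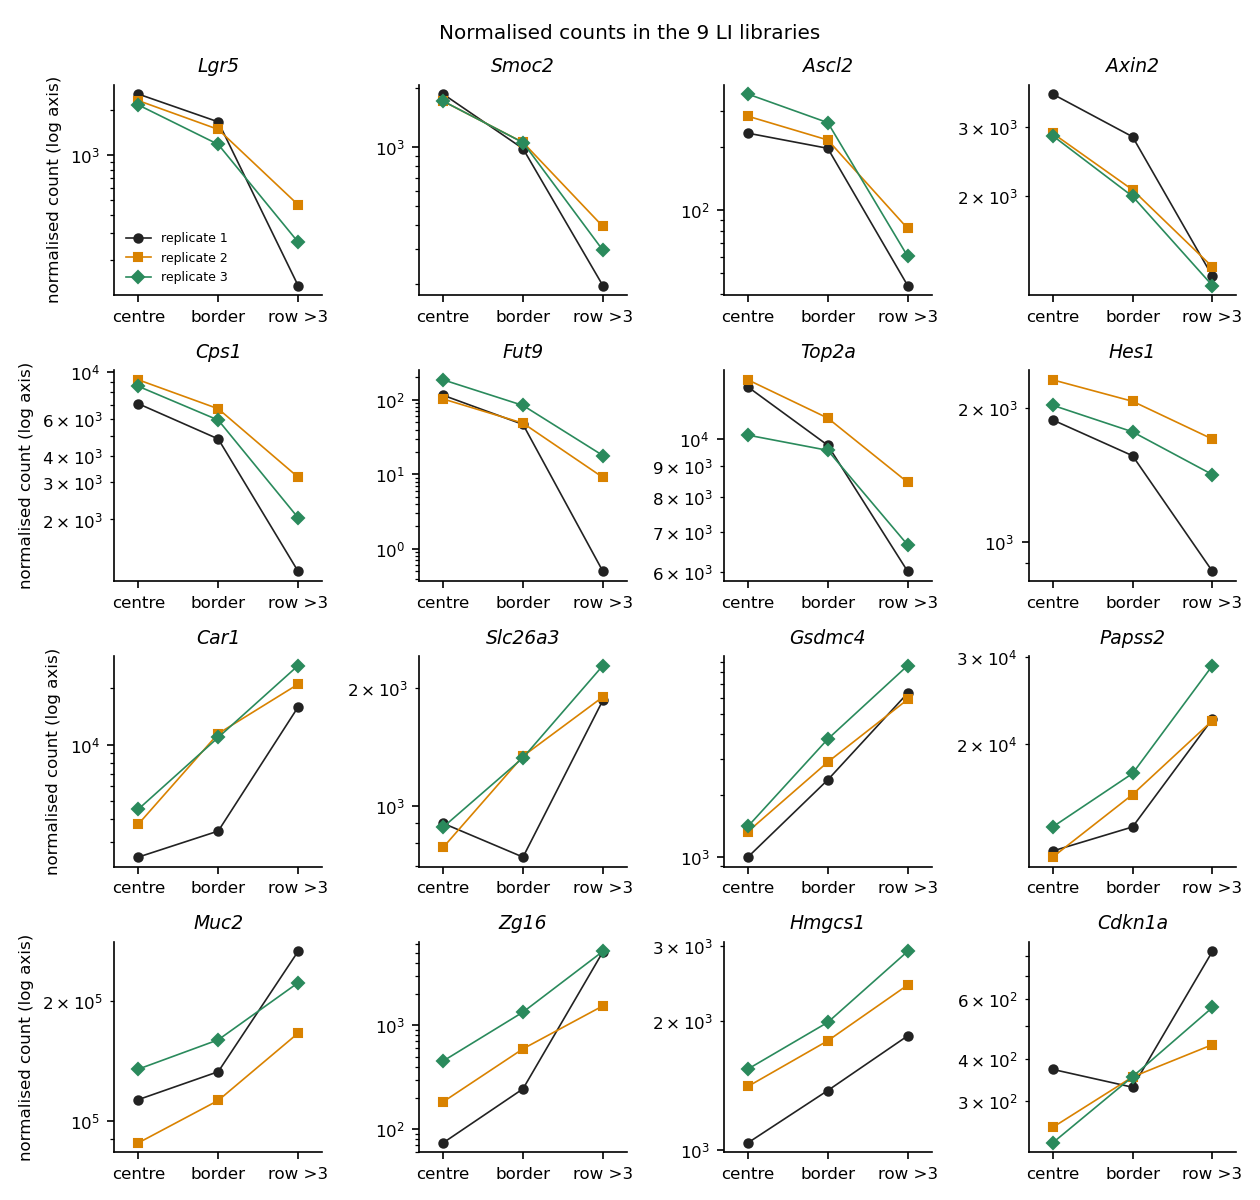
Normalised counts on a log axis of 16 genes in the 9 LI libraries, with lines joining centre, border and row >3 libraries of the same replicate number; a count of 0 (*Fut9*) is drawn at 0.5. *Lgr5*, *Smoc2* and *Axin2* fall in every replicate, *Gsdmc4*, *Muc2* and *Hmgcs1* rise in every replicate, and border values lie mostly between the other levels.

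Cell cycle genes were modestly lower. Of 31 S phase genes 19 fell and 0 rose (median -0.50), and of 30 G2/M genes 17 fell and 0 rose (median -0.46). *Top2a*, the topoisomerase of dividing cells, had 12191, 12528 and 10133 in centre and 6008, 8455 and 6648 in row >3 libraries (log2 fold change -0.73 ± 0.08, adjusted p = 0.000195). *Mki67*, the Ki-67 antigen, overlapped between the groups, with 31795, 32340.3 and 25397 in centre against 22104, 27367 and 21045 in row >3, and was lower in each pair (log2 fold change -0.34 ± 0.06, adjusted p = 0.00517). The helicase subunit *Mcm7* (-0.49 ± 0.08), the DNA methyltransferase *Dnmt1* (-0.54 ± 0.10), the polymerase *Pola1* (-0.62 ± 0.11) and the mitotic motor *Kif11* (-0.55 ± 0.08) are further examples. Without the block only 1 S phase and 1 G2/M gene were called, although 24 and 15 had an unadjusted p under 0.05, and scaled by library size only 23 and 22 were. With the block in the 6 libraries compared, edgeR called 2 S phase and 5 G2/M genes. The fit of all 18 libraries called 6 and 9. With 1 library left out the S phase count was 10, 11 and 10 without centre replicate 1, centre replicate 3 and row >3 replicate 3, and the G2/M count was 11 without centre replicates 1 or 2 or row >3 replicate 3. Of 6 tested CDK inhibitors 2 were higher and 4 were not called. *Cdkn1a*, which encodes p21, had 372, 251 and 226 in centre and 828, 439.6 and 566 in row >3 libraries (log2 fold change 1.11 ± 0.18, adjusted p = 0.00199), and *Cdkn2b* had 0, 5.10 and 12.3 in centre against 53.7, 28.8 and 39.6 in row >3 (log2 fold change 2.64 ± 0.63, adjusted p = 0.0184). *Ccnd3* (0.56 ± 0.12) rose and *Cdk4* (-0.49 ± 0.10) fell, and 11 of 15 tested genes of this G1 list were not called. Of 26 ribosome biogenesis genes 10 were lower and 0 higher, among them the nucleolar proteins *Ncl* (-0.53 ± 0.06) and *Npm1* (-0.58 ± 0.06). Without the block 1 of the G1 list and 1 of the ribosome biogenesis list were called, and without centre replicates 1, 2 and 3 and row >3 replicate 3 the latter had 5, 3, 4 and 6 calls. Without centre replicate 2 or 3 the G1 list had 2 calls.

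**Figure D3:**
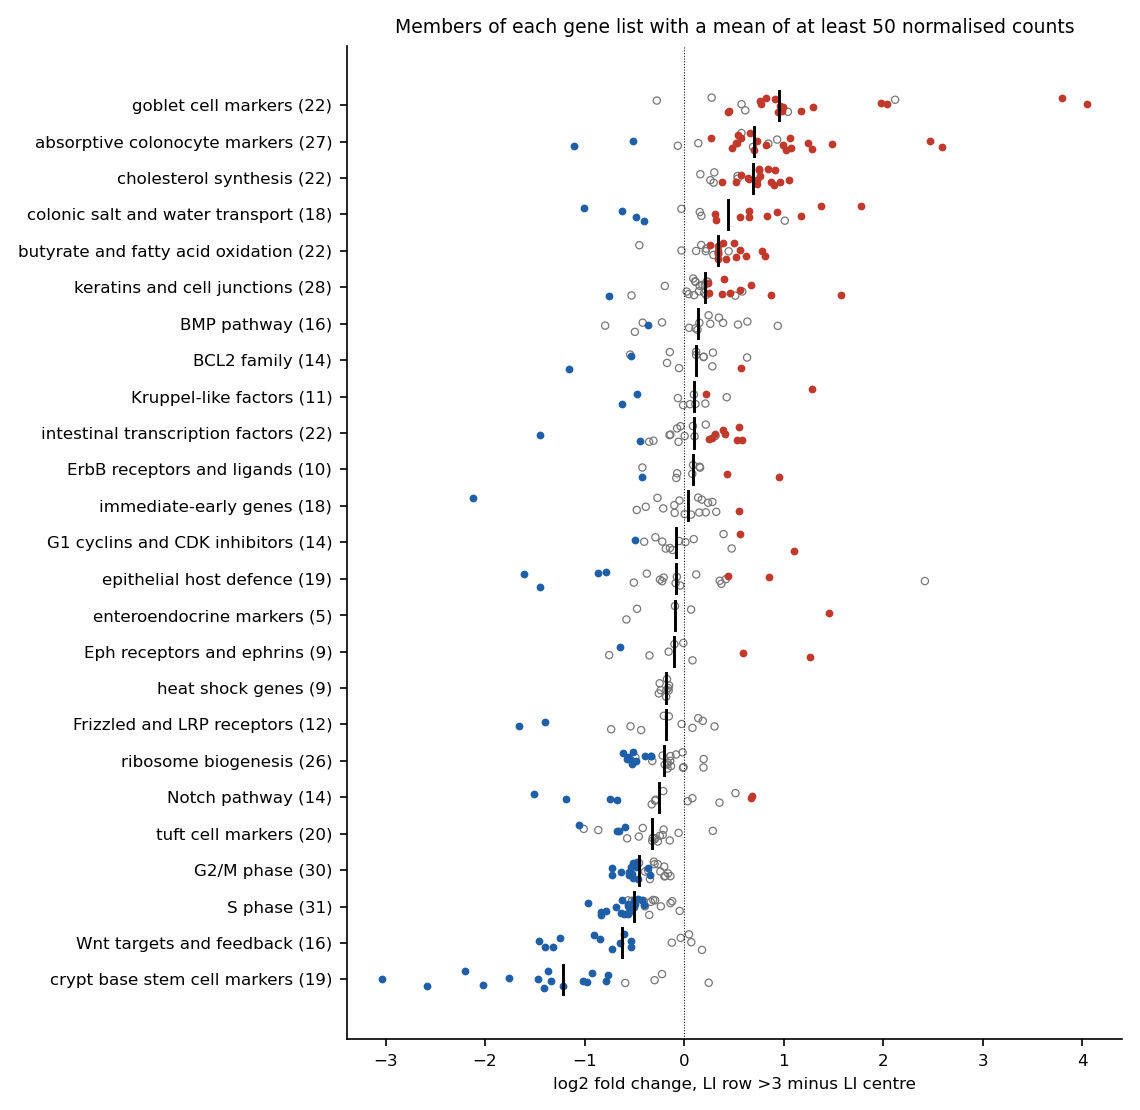
Log2 fold change (x axis) of each member with an LI mean of at least 50 normalised counts in 25 lists (y axis, number of members in brackets). Red and blue points are members called higher and lower, open points members not called, and black bars are medians, which run from -1.22 for stem cell markers to 0.95 for goblet cell markers.

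Markers of absorptive colonocytes rose. Of 30 listed genes 19 were higher, 2 lower and 9 not called, with a median of 0.72. *Car1*, a colonic carbonic anhydrase (chr3:14766216-14808368), had 2498, 3750.2 and 4510.0 normalised counts in centre and 15895, 21055 and 26486 in row >3 libraries. The fitted fold was 6.01, with all row >3 libraries above all centre libraries (log2 fold change 2.59 ± 0.25, adjusted p = 0.00204). *Slc26a3*, the chloride-bicarbonate exchanger of the surface, had 901, 781 and 881 in centre against 1861, 1898 and 2283 in row >3 (log2 fold change 1.24 ± 0.15, adjusted p = 0.000328). The phosphate carrier *Slc20a1* had 697, 1028 and 822 in centre against 7182, 3570.5 and 4031 in row >3 (log2 fold change 2.47 ± 0.28, adjusted p = 0.00234). Brush border and surface genes such as *Cdhr5* (0.70 ± 0.09), *Cdhr2* (0.54 ± 0.07), *Myo1a* (0.53 ± 0.08), *Vil1* (0.27 ± 0.07), *Mep1a* (1.06 ± 0.15), *Anpep* (1.0 ± 0.11) and *Lypd8* (1.02 ± 0.13), the water channel *Aqp8* (1.48 ± 0.36) and the peptide hormone *Guca2a* (1.29 ± 0.22) rose too. *Car4*, a membrane carbonic anhydrase, fell from 2308, 2347 and 2526 to 1253, 1865 and 1968 (log2 fold change -0.51 ± 0.10, adjusted p = 0.00667), and *Clca4a*, listed as *Clca6*, from 1001, 2101 and 1656 to 212, 1109.9 and 1066 (log2 fold change -1.11 ± 0.19, adjusted p = 0.00352). The *Clca4a* groups overlapped and the *Car4* groups did not. *Krt20*, a keratin of the surface epithelium, had 619, 408 and 444 in centre against 606, 664 and 918 in row >3 and was not called (adjusted p = 0.527). Without the block 7 of the 30 were called, and without replicate 1 22 were higher and 2 lower.

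The letters TTTATNG, a core of CDX factors, were found in the 250-base windows of 7 of 27 absorptive markers (25.926%), 4 of 13 Wnt targets (30.769%), 3 of 13 goblet cell markers (23.077%), 1 of 15 stem cell markers (6.667%) and 1 of 14 cholesterol synthesis genes (7.143%), against 7.268% of the 8641 genes with a mean of at least 50, 7.28% of genes called higher and 8.523% of genes called lower. The letters CAAAGTCCA of the HNF4 motif were found in 11 of 989 windows of genes called higher (1.112%), 3 of 704 called lower (0.426%) and 36 of 8641 (0.417%), and in 2 absorptive markers. On the opposite strand TTTATNG reads CNATAAA, which takes in TATAAA, the letters of a TATA box, so the CDX letters are not specific. *Krt20* had CTATAAA 24 bases before the start, and *Foxa3* and *Muc4* had it at 31 bases. How many matches were of this kind was not counted. Of the 7 absorptive markers with CDX letters 1 rose and 6 were not called, of the 2 with HNF4 letters 1 rose and 1 was not called, and of the 4 Wnt targets 1 fell. The windows shown are those of the absorptive markers that rose, with the match in capitals: *Fabp2*, a fatty acid binding protein (CDX, chr3:122894822-122895071, plus strand, log2 0.73 ± 0.10), and the membrane mucin *Muc13* (HNF4 on the opposite strand, chr16:33794239-33794488, plus strand, log2 0.57 ± 0.08).
Fabp2: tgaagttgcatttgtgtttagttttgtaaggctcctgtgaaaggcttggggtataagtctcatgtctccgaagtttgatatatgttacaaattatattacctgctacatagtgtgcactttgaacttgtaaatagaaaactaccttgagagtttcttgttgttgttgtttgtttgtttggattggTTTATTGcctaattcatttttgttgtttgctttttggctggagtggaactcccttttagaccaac
Muc13: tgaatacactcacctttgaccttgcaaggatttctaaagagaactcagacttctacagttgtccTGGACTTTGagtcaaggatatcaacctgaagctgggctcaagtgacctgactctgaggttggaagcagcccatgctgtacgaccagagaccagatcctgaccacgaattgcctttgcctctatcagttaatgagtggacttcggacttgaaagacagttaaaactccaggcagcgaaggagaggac
The factors' own RNAs rose slightly, *Cdx1* (0.41 ± 0.09), *Cdx2* (0.39 ± 0.08) and *Hnf4a* (0.26 ± 0.06). Without the block edgeR called 0 of the intestinal factors listed below, these included.

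Genes of colonic salt and water transport changed in both directions. Of 24 listed genes 23 were tested, of which 10 rose, 4 fell and 9 were not called. The epithelial sodium channel subunit *Scnn1a* had 1356, 1246 and 1801 in centre against 3623, 2079 and 2844 in row >3 (log2 fold change 0.94 ± 0.13, adjusted p = 0.000621). The mineralocorticoid receptor *Nr3c2* (0.83 ± 0.09), the enzyme *Hsd11b2* (1.18 ± 0.11) that protects it from cortisol-like steroids, the anion exchanger *Slc4a2* (0.65 ± 0.10), the sodium-proton exchanger *Slc9a2* (0.65 ± 0.13) and the potassium channel *Kcnma1* (1.37 ± 0.17) were higher. The 4 genes that fell were the chloride channel *Cftr* (log2 fold change -0.40 ± 0.12, adjusted p = 0.0481) and the potassium channel genes *Kcnq1* (-1.01 ± 0.10), *Kcne3* (-0.63 ± 0.10) and *Kcnn4* (-0.48 ± 0.11). They are known to act in chloride secretion, but chloride secretion genes were not tested as a group. *Kcnq1* went from 3187, 2604 and 2342 in centre to 1273, 1474 and 1254 in row >3 libraries, without overlap. *Slc12a2*, which loads these cells with chloride, fell in the stem cell list above, and *Best2*, a bicarbonate channel of goblet cells, rose from 72.9, 64.9 and 94.1 to 431, 189 and 228 (log2 fold change 1.78 ± 0.24, adjusted p = 0.000583). Without the block 7 genes of the transport list were called, 5 higher and 2 lower. With the block in the 6 libraries compared 6 were higher and 1 lower. Without centre replicate 2, centre replicate 3 or row >3 replicate 3, 8 were higher and 2 lower.

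A pair of gasdermin C genes, a family of pore-forming proteins, had the smallest p of all genes tested. *Gsdmc4* (chr15:63891264-63912297) had 995, 1326 and 1406 normalised counts in centre and 6309, 5876 and 8606 in row >3 libraries (log2 fold change 2.47 ± 0.10, adjusted p = 1.36e-07). *Gsdmc2* had 430.5, 550.3 and 545 in centre against 4530.0, 3114 and 4311 in row >3 (log2 fold change 2.95 ± 0.16, adjusted p = 1.45e-06), and *Gsdmc3* 156, 84.6 and 101 in centre against 577, 583 and 648 in row >3 (log2 fold change 2.45 ± 0.18, adjusted p = 9.33e-06). Row >3 libraries lay far above all centre libraries in all 3 genes, but the genes are close paralogues in 1 cluster, so the split of reads between them is uncertain. *Dmbt1*, a secreted scavenger protein, was abundant with 71089.8, 71326 and 74013 in centre against 121729, 138161 and 161286 in row >3 (log2 fold change 0.95 ± 0.06, adjusted p = 4.05e-06). *Hao2*, a peroxisomal oxidase, had 1384, 2002 and 1969 in centre against 3999, 4835 and 6245 in row >3 (log2 fold change 1.49 ± 0.09, adjusted p = 4.05e-06). The sulfate transporter *Slc26a2* (0.89 ± 0.06), the PAPS synthase *Papss2* (0.97 ± 0.07) and UDP-glucose dehydrogenase *Ugdh* (1.0 ± 0.07) were higher. Of further genes named by rule, *Slc37a2*, a sugar phosphate carrier, had 467, 860.1 and 730.4 in centre against 8145, 5722 and 7446 in row >3 (log2 fold change 3.40 ± 0.31, adjusted p = 0.0014), *Lgals3*, galectin-3, 709, 739.8 and 968 in centre against 1855, 1985 and 2693 in row >3, and *Selenbp1*, a methanethiol oxidase, 1939.5, 1679 and 2128 in centre against 5641, 3929.6 and 5817 in row >3. None of them overlapped. *Fer1l6* (2.74 ± 0.23), *Apol10a* (2.57 ± 0.37), *Car2* (0.82 ± 0.06), *Slc4a7* (1.0 ± 0.07), *Ahcyl2* (0.87 ± 0.06), *Nudt4* (1.07 ± 0.08) and *Tgoln1* (0.92 ± 0.07) complete that set.

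Goblet cell markers were higher. Of 22 genes, all tested, 16 rose, 0 fell and 6 were not called, with a median of 0.95. *Muc2*, the gel-forming mucin of the colon (chr7:141690340-141754693), had 113049, 88044 and 134853 in centre and 266507, 166044 and 222227 in row >3 libraries (log2 fold change 0.96 ± 0.09, adjusted p = 4.91e-05), and was thus abundant in both. *Fcgbp*, which binds to that mucin, had 31284, 30465 and 53763 in centre against 172369, 99189 and 176238 in row >3 (log2 fold change 1.98 ± 0.18, adjusted p = 0.000965). Among the higher genes named by rule, those with the highest fold changes were 2 goblet cell products with uneven replicates. *Zg16*, a lectin of the mucus, had 74.1, 184 and 453 in centre against 5076, 1536 and 5136 in row >3 (log2 fold change 4.05 ± 0.72, adjusted p = 0.0372), and 2 of the 6 fits with 1 library left out called it. *Clca1*, listed as *Clca3*, had 126, 366 and 664 in centre against 6766, 2849 and 6426 in row >3 (log2 fold change 3.80 ± 0.55, adjusted p = 0.0211), and 4 of 6 called it. *Tff3*, the trefoil peptide, had 459.9, 1029 and 1812 in centre against 5456, 2979.8 and 4877 in row >3 without overlap but was not called (adjusted p = 0.078). The lineage factors *Spdef* (0.94 ± 0.18) and *Creb3l1* (0.44 ± 0.09), the disulfide isomerase *Agr2* (0.98 ± 0.21), the ER sensor *Ern2* (0.78 ± 0.09) and the exocytosis gene *Sytl2* (0.92 ± 0.11) rose. The summed level of the 22 markers was 180529 to 283664 normalised counts in centre and 361897 to 566969 in row >3 libraries. Without the block 4 were called, and in the fit of all 18 libraries edgeR called 0. In the edgeR fit without the block 12 had an unadjusted p under 0.05, and DESeq2 called 11 without the block in the 6 libraries compared, which also leaves out the border libraries (the DESeq2 fit without the block in all that follows). Without centre replicate 2 the count was 8, and without all replicate 1 libraries 18.

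Deep crypt secretory cells, the neighbours of colonic stem cells, are marked by *Reg4* and *Kit*. *Reg4* had 21050.2, 24359.6 and 49652 in centre against 59223, 43253 and 62968 in row >3 normalised counts and missed the threshold (log2 0.90 ± 0.21, adjusted p = 0.056), while *Kit* (log2 fold change 0.54 ± 0.08, adjusted p = 0.00176) and *Mmp15* (0.40 ± 0.10) rose and *Cd24a* (-0.32 ± 0.08) fell. Without the block edgeR called 0 of these markers, of which 2 had an unadjusted p under 0.05, and DESeq2 without the block called 0. Without centre replicate 1 or 2 there was 1 call. Of 26 enteroendocrine markers 1 was called, the hormone gene *Sct*, with 314, 374 and 541 in centre against 1337, 806 and 1304 in row >3 (log2 fold change 1.46 ± 0.15, adjusted p = 0.000143), and 5 of the 26 had a mean of at least 50. Of 25 tuft cell markers 4 were lower, among them *Trpm5* (-0.65 ± 0.16), *Sh2d6* (-0.67 ± 0.15) and *Il17rb* (-1.06 ± 0.30), and border cells were above both other levels in all 4. *Trpm5* had 1039, 709.9 and 566 in centre, 1299, 898 and 878 in border and 455, 567 and 402 in row >3 libraries. None of these 4 was called without the block, where edgeR called 0 of the 25 and 6 had an unadjusted p under 0.05, and DESeq2 without the block called 0. With the block, 0 tuft cell markers were called without centre replicate 2 or row >3 replicate 3, and 7 were lower and 1 higher without all replicate 1 libraries. Immune, stromal and Paneth cell markers were mostly low, with 3 of 23, 1 of 17 and 2 of 19 at a mean of at least 50, so these counts say little about the members. Of 23 immune markers tested 1 was called, the macrophage gene *C1qa* (0.67 ± 0.18), which kept its call in 1 of the 6 fits with 1 library left out, without row >3 replicate 3, and lost it without the block. The summed level of the list was 598 to 996 in centre and 780 to 1099 in row >3 cells. Of 17 stromal markers edgeR called 0, DESeq2 0, and 2 had an unadjusted p under 0.05, with sums of 159 to 223 and 167 to 187. Of 19 Paneth and SI markers edgeR and DESeq2 called 0, and 1 had an unadjusted p under 0.05.

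Cholesterol synthesis genes rose as a group. Of 22 genes 16 were higher and 0 lower, with a median of 0.69. *Hmgcs1*, which makes the substrate of the pathway, had 1041, 1409 and 1547 in centre and 1848, 2428 and 2909 in row >3 libraries (log2 fold change 0.84 ± 0.08, adjusted p = 4.98e-05), a rise in each pair. *Sqle* (0.76 ± 0.11), *Msmo1* (1.05 ± 0.11), *Fdps* (0.90 ± 0.12) and the regulator *Srebf2* (0.57 ± 0.08) rose, and *Idi1* (log2 0.30 ± 0.17, adjusted p = 0.369) was not called. The summed level did not overlap, with 14705 to 15340.3 in centre and 22917 to 24682 in row >3 libraries. This list held better than most, with 8 calls without the block, 13 in the fit of all 18 libraries and 13 by library size only.

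Of 22 genes of butyrate uptake and fatty acid oxidation 14 rose and 0 fell, with small changes (median 0.34). *Slc16a1*, the transporter of butyrate, had 3019, 3693 and 4207 in centre against 5188, 6052 and 8078 in row >3 (log2 fold change 0.81 ± 0.08, adjusted p = 6.07e-05). The second transporter *Slc5a8* (0.79 ± 0.10), the short-chain dehydrogenase *Acads* (0.50 ± 0.08) and the coactivator *Ppargc1a* (0.56 ± 0.10) were higher too. Without the block edgeR called 0 of the 22, of which 9 had an unadjusted p under 0.05, and DESeq2 without the block called 2. The fit of all 18 libraries called 1 and library size only 7, and without centre replicates 1 and 2 and row >3 replicate 3 there were 9, 6 and 8 calls. Of 29 keratins and junction genes 9 rose and 1 fell. *Krt19* (0.87 ± 0.10), *Krt8* (0.68 ± 0.08) and the claudins *Cldn4* (1.58 ± 0.29) and *Cldn3* (0.56 ± 0.09) rose, and *Cldn2*, the pore-forming claudin of the crypt, fell from 2776, 2825 and 2639 to 1245, 2064 and 1624 (log2 fold change -0.75 ± 0.11, adjusted p = 0.0012). Without the block 4 of the 29 were called, by library size only 5, and without centre replicate 2 or 3 or row >3 replicate 3 also 5. Without all replicate 1 libraries there were 14 higher and 3 lower.

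Among transcription factors, *Klf4*, which is high in differentiated cells, had 1476, 1761 and 2210.0 in centre and 4809.7, 3248 and 5411 in row >3 libraries (log2 fold change 1.29 ± 0.12, adjusted p = 5.45e-05). Of the 13 Kruppel-like factors 2 were higher, *Klf4* included, 2 were lower and 9 were not called. Of 29 intestinal factors 8 rose, with *Isx* (0.55 ± 0.09) and *Nr1h4* (0.59 ± 0.16) the largest, and 3 fell, *Etv4* (-1.45 ± 0.26), *Sox5* (-3.53 ± 0.78) and *Vdr* (-0.44 ± 0.07). Without the block edgeR called 0 of the 29, of which 11 had an unadjusted p under 0.05, DESeq2 without the block called 4, and without centre replicates 1, 2 and 3 and row >3 replicate 3 there were 5, 4, 5 and 5 calls. In epithelial host defence 2 of 28 genes rose, the immunoglobulin transporter *Pigr* (0.44 ± 0.05) and *Il18* (0.85 ± 0.23), and 4 fell. *Il18* and the factor *Nr1h4* above lost their calls in each fit with 1 library left out. *Nox1*, the NADPH oxidase of the colon, had 2203, 2658 and 2432 in centre against 477, 1369.6 and 904 in row >3 (log2 fold change -1.45 ± 0.20, adjusted p = 0.000936), and *Nod1* (-0.87 ± 0.13), *Nlrp6* (-0.78 ± 0.07) and *Nos2* (-1.61 ± 0.38) were also lower. Of 16 BCL2 family genes tested *Bad* (0.57 ± 0.15) rose and *Bok* (-1.15 ± 0.19) and *Pmaip1* (-0.54 ± 0.12) fell, and of 8 MHC class II genes, of which 2 had a mean of at least 50, the low gene *H2-Eb1* (-1.79 ± 0.43) fell. Of 19 immediate-early genes, which respond to cell handling, *Jund* (0.56 ± 0.12) rose and *Egr3* (-2.12 ± 0.44) fell, and of 10 heat shock genes edgeR called 0, DESeq2 2, and 4 had an unadjusted p under 0.05. Without the replicate 1 libraries edgeR called 4 heat shock genes lower, and it called immediate-early genes with 2 higher and 7 lower, host defence genes with 5 higher and 7 lower and BCL2 family genes with 3 higher and 3 lower. Without the block 1 Kruppel-like, 3 host defence and 1 BCL2 family gene were called, and no MHC class II (0) or immediate-early gene (0), of which 0 and 2 had an unadjusted p under 0.05, while DESeq2 without the block called 0 and 1. Fits with 1 library left out called as few as 1 Kruppel-like, 1 BCL2 family, 0 MHC class II and 0 immediate-early genes, each reached without centre replicate 1 except the BCL2 count, reached without centre replicate 2 and row >3 replicate 3.

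Border cells lay between, but closer to centre cells. In 2051 of the 2174 genes (94.3%) the border mean was between the other 2 means, against 59% of the 11163 genes with a mean of at least 50. The 2174 were chosen for a difference between centre and row >3 cells, which itself favours a border mean in between. On the log2 scale, with centre at 0 and row >3 at 1, the median border position was 0.309 (quartiles 0.19 and 0.435), and 1846 genes were below 0.5. It was 0.231 for *Lgr5*, 0.301 for *Smoc2* and 0.515 for *Gsdmc4*, and the medians were 0.291 for stem cell markers, 0.0976 for Notch genes, 0.33 for absorptive and 0.222 for goblet cell markers. Between border and centre cells 3 genes were called in the same fit (0.0121%), *Gsdmc4*, *Gsdmc2* and *Dmbt1*, all higher in border cells, and 1275 had an unadjusted p under 0.05. Between row >3 and border cells 685 were called (2.77%), 404 higher (1.63%) and 281 lower (1.13%) in row >3 cells.

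In the fit of all 18 libraries, which tested 26717 genes, the contrast called 692 genes in the LI (2.59%) and 6103 in the SI (22.8%) with the block, and 6201 in the SI without SI replicate 3, whose 3 libraries had the highest mitochondrial shares of the series (30.2% to 32.5%). Of the 2174 genes called in the LI, 2113 (97.2%) had the same sign in the SI, against 79.3% of the genes with a mean of at least 50, and 1871 were called there in the same direction. Centre and row >3 libraries are not shared between the sites. A test of the difference between the sites in 1 fit of the 18 libraries called 620 genes (2.32%), and 62 to 1542 with 1 library left out, the fewest without SI centre replicate 1. Of the 620, 404 had the lower value in the LI (1.51%) and 216 the higher (0.808%). Among them 318 were among the 2174 and 307 of these also without SI replicate 3. Without the block this edgeR test called 0 genes, and 1800 had p under 0.05 before adjustment. DESeq2 with the block called 1502.

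Where the sites differed, the change was mostly smaller in the LI, in 313 of the 318 genes. The same share over all 2174 genes was not counted. The fit of all 18 libraries called 6103 genes in the SI and 692 in the LI. A smaller LI change may therefore not be particular to the 318. *Cdkn1a* rose by 1.11 in the LI and 3.62 ± 0.27 in the SI on the log2 scale (difference -2.51 ± 0.36, adjusted p = 0.0028), *Lgals3* by 1.44 and 3.48 ± 0.25 (difference -2.04 ± 0.32, 0.00513). *Cdca7*, a stem cell marker, had -0.79 and -2.25 ± 0.15 (difference 1.46 ± 0.20, 0.0028), and the serine synthesis enzyme *Phgdh* -0.59 and -2.64 ± 0.19 (difference 2.06 ± 0.25, 0.00167). Others named by rule with a stronger fall in the SI were *Kif12*, *Afap1l1*, *Tubb5*, *Hmgn1* and *Hmga1*, and with a stronger rise *Kdm7a*, *B3gnt3*, *Cdhr2*, *Slc35c1*, *Mxd1* and *Dock8*. In 6 of the 318 genes the signs were opposite, among them 2 named here. *Fyn*, a Src family kinase, went in the LI from 101, 117 and 187 normalised counts in centre to 299.7, 189 and 262 in row >3 libraries (log2 0.83 ± 0.22, called in 1 of the 6 fits with 1 library left out), and had a log2 fold change of -1.83 ± 0.26 in the SI (difference 2.67 ± 0.36, adjusted p = 0.0028). *Clca4a* fell in the LI and had 1.42 ± 0.41 in the SI (difference -2.57 ± 0.53, 0.0379). *Lgr5* (difference 1.82 ± 0.81, 0.381), *Smoc2* (0.25 ± 0.57, 1) and *Muc2* (-2.81 ± 1.05, 0.266) were not called different between the sites.

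**Figure D4:**
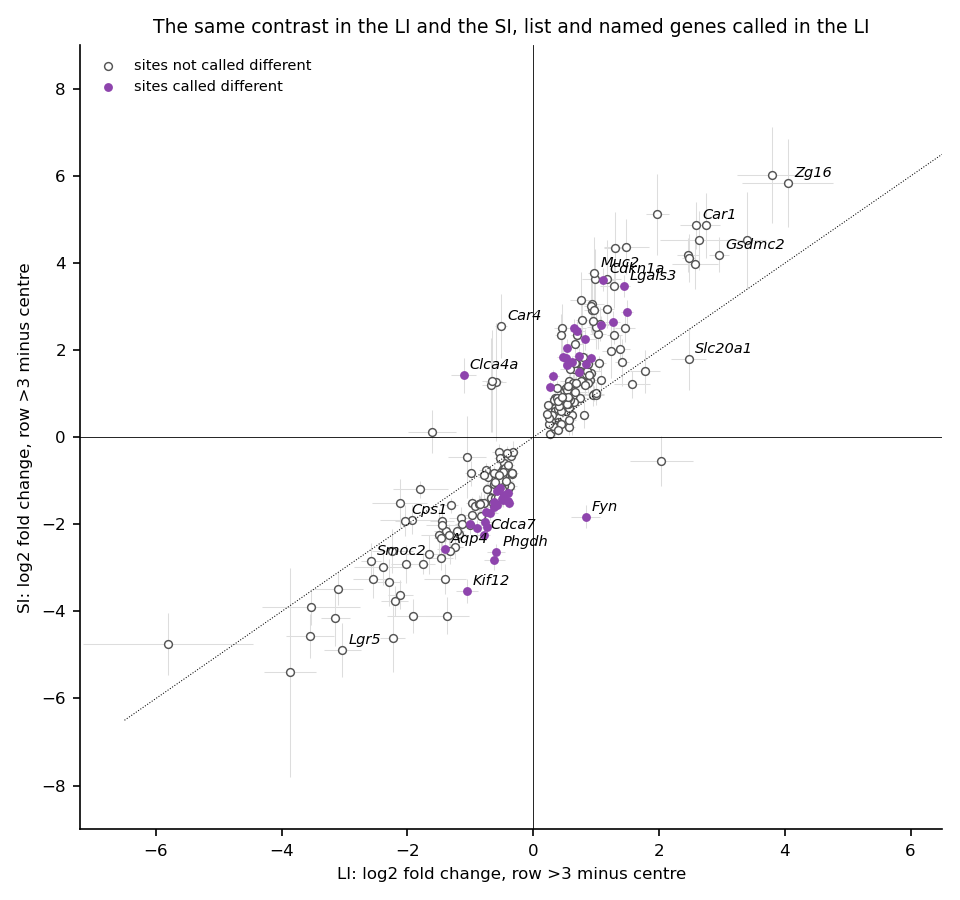
Log2 fold change of row >3 against centre cells in the LI (x axis) and the SI (y axis), with SE, for the 264 list and named genes called in the LI. Filled points are the 44 genes called different between the sites and open points the other 220, and the dotted line marks equal change. Most filled points have the greater change in the SI, and *Fyn* and *Clca4a* have opposite signs.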

How the data were processed

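The authors sorted GFP high, medium and low EPCAM-positive cells from SI and LI crypts and made stranded SMART-Seq libraries, read as paired ends. Per the labels and the study's methods, reads were trimmed with Skewer and aligned to mm10 with STAR, and the authors deposited raw counts per gene and DESeq2-normalised counts. The normalised values, a signal scaled by size factors as deposited, were used for levels, means and SDs only. The strand setting of counting is not given in the sources used here.

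From the deposited counts, edgeR 4.0.16 (R 4.3.3) fitted a quasi-likelihood model to the 9 LI libraries with TMM factors, genes with a mean count above 0, and group and replicate number as terms. The contrast was row >3 minus centre, and p was adjusted by the Benjamini-Hochberg method over 24761 genes. Each SE was derived from the test, as the absolute log2 fold change divided by the square root of the quasi-likelihood F. It was not fitted separately, and its ratio to the change does not rank genes as p does. The site difference came from all 18 libraries with replicate within site as a block. DESeq2 1.42.0 and the other alternatives are given at the end. The script was tested on simulated data. Samples were grouped by the label of organ and GFP level. The study describes 3 biological replicates and gives 3 mice for its principal component plot, while the caption of its volcano plots gives a different number of mice. The labels do not say that a number marks 1 mouse, but samples of the same number deviated together, so the number was used as a block. With each group's mean subtracted, correlations were 0.4145 to 0.6516 over 3 pairs and 11163 genes, and -0.4049 to -0.1627 between numbers. Given positive values within numbers, the subtraction makes those between numbers negative on average, so the latter add no support. With the block, p-values measure the spread left between these samples after group and replicate number were fitted. The main fit left 4 residual degrees of freedom, and edgeR moderated the spread across genes.

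Genes were named by rule: the list members, up to 15 called genes per direction with the smallest adjusted p and 10 with the greatest fold change, without overlap of the groups and with at least 100 normalised counts in the higher group, and 8 per direction for the site difference. Results for some list members are not reported here. Members and lists were chosen with earlier results of these data known. Gene coordinates are mm10, and promoter windows are RefSeq GRCm38.p6.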

Additional observations from a re-analysis of the deposited data

Results flagged for a closer look

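These genes stood out because the change from centre to row >3 cells differed between the LI and the SI, by edgeR's test of the difference with a Benjamini-Hochberg adjusted p under 0.05. Values are LI minus SI log2 fold changes. Among genes that fell in the LI the difference was above 0, so the fall was smaller there, for *Afap1l1* (2.20), *Aqp4* (1.15), *Cdca7* (1.46), *Cdk4* (0.94), *Hmga1* (1.12), *Hmgn1* (1.06), *Kcne3* (0.86), *Kcnq1* (0.99), *Kif12* (2.48), *Mcm7* (0.92), *Ncl* (0.64), *Notch2* (0.97), *Npm1* (0.67), *Phgdh* (2.06), *Pola1* (0.99), *Rnf43* (1.19), *Tcf7* (1.33), *Tubb5* (0.98). Among genes that rose it was below 0, so the rise was smaller in the LI, for *B3gnt3* (-1.30), *Cdhr2* (-1.11), *Cdkn1a* (-2.51), *Dock8* (-1.74), *Edem3* (-1.08), *Efnb2* (-1.39), *Ethe1* (-1.48), *Fabp2* (-1.13), *Hao2* (-1.38), *Hmgcs1* (-0.85), *Hspa5* (-0.97), *Ihh* (-1.04), *Kdm7a* (-1.37), *Lgals3* (-2.04), *Mxd1* (-1.85), *Myo1a* (-1.52), *Pdia3* (-0.72), *Slc35c1* (-1.12), *Tgoln1* (-0.90), *Vil1* (-0.89). *Fyn* (2.67) and *Clca4a* (-2.57) had opposite signs in the organs. Without the block edgeR called no gene in this comparison (0, although 1800 had p under 0.05 before adjustment), and DESeq2 with the block called 1502. The cause of these differences was not tested.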

How the results depend on the processing

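The 2174 genes called became 366 without the replicate block (9 LI libraries), 243 without it in the 6 libraries compared, 545 with the block in these 6, 692 with the block in all 18 libraries, 5 without it in all 18, 813 by DESeq2 in the 6 without the block and 22 against a log2 fold change of 1 (glmTreat). All 366, 692 and 5 were among the 2174, and 544 of the 545. DESeq2 with the block called 2732, 2123 of them shared. RLE factors, filterByExpr, no filter and the legacy fit gave 2147, 2609, 1632 and 2838. With library size only 34.3% of the 2023 calls were higher, against 58% before. Leaving out 1 library, or all LI libraries of 1 replicate number, gave 758 to 3760 calls, with 1362, 989, 1067 and 1099 without centre replicates 1, 2 and 3 and row >3 replicate 3, and 3760, 993 and 758 without replicates 1, 2 and 3. The cause of these shifts was not tested.

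The 69 genes past p 0.001 and a log2 fold change of 2 became 44 and 41 without the block (9 and 6 libraries), 36 with the block in 6, 17 without it in 18, and 144 by DESeq2. Leave-outs gave 30 to 88, the lowest without row >3 replicate 1, and 36 without centre replicate 1. The 620 site differences became 0 without the replicate block, 1502 by DESeq2, 981 under filterByExpr and 1997 without the SI libraries of replicate 3. With library size only 45.2% of 620 were higher in the LI, against 34.8%. Leaving out 1 library gave 62 to 1542, with 62 and 65 without SI centre and row >3 replicate 1, 372 and 1542 without SI row >3 replicates 2 and 3, 1233 without SI centre replicate 3, 201, 118 and 143 without LI centre replicates 1, 2 and 3, and 110 and 140 without LI row >3 replicates 2 and 3.

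Among the genes named, signs turned for some that were not called and for muscle genes. By library size only *Epcam* was at -0.0239, *Lrp6* at -0.0312 and *Tcf7l2* at -0.067. Over the fits that left out 1 library or 1 replicate number, log2 fold changes ran from -0.0664 to 0.00989 for *Ephb2*, -0.0841 to 0.0172 for *Lrp5*, -0.0464 to 0.596 for *Id1* and -0.0574 to 0.123 for *Tcf7l2*. For the muscle genes they ran from -5.75 to 0.815 for *Atp2a1*, -4.64 to 2.28 for *Myh4*, -7.21 to 0.111 for *Myh1* and -8.49 to 0.0582 for *Tnnc2*. Genes with few counts were not decided at this depth.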

Other observations

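The genes below were chosen after their values were seen. A pair of genes that act in hydrogen sulfide oxidation were higher in row >3 cells. *Ethe1*, the persulfide dioxygenase, had 849, 816 and 968 normalised counts in centre and 2234, 1878 and 2400.1 in row >3 libraries (log2 fold change 1.31 ± 0.10, adjusted p = 2.09e-05 by edgeR with Benjamini-Hochberg adjustment), and *Sqrdl*, the sulfide quinone oxidoreductase, 3486, 3833 and 4396 in centre against 5974, 6187 and 8257 in row >3 (log2 fold change 0.79 ± 0.07, adjusted p = 3.59e-05). The glycolysis genes *Hk1* (0.90 ± 0.10), *Aldoa* (0.91 ± 0.09), *Pfkl* (0.66 ± 0.07) and *Ldha* (0.56 ± 0.07) were also higher, as were *Hspa5* (0.42 ± 0.06), *Dnajb11* (0.71 ± 0.10), *Pdia3* (0.48 ± 0.06) and *Edem3* (0.59 ± 0.08), which act in protein folding in the ER. The other genes of these pathways were not counted. In all of these genes the groups did not overlap.

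*Ihh* and *Shh*, both hedgehog ligands, were called in opposite directions. *Ihh* had 726, 688 and 894 in centre and 1275, 1045 and 1379 in row >3 libraries (log2 fold change 0.68 ± 0.09, adjusted p = 0.00082), and *Shh* 138, 63.4 and 70.3 in centre against 18.2, 34.9 and 39.6 in row >3 (log2 fold change -1.46 ± 0.38, adjusted p = 0.0308). 1 of the 6 fits with 1 library left out called *Shh*. *Muc5ac*, a mucin of the stomach, was called higher, but its normalised counts were 0, 0 and 0 in centre, 18.3, 0 and 0.744 in border and 212, 1.52 and 0.943 in row >3 libraries, so replicate 1 alone carried the level.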
